A study of Mus musculus with 3 samples.

Results

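The myosin family was followed through osteoclast formation in 3 mouse bone marrow cultures, harvested after 0, 24 or 72 h of RANKL and measured on 1 Affymetrix array each. The members were all genes with a single-symbol probe set whose symbol is that of a myosin heavy chain (Myh with a number), an unconventional myosin motor (Myo with a number), a myosin light chain (Myl with a number), a myosin light chain kinase (Mylk) or Mylip. This rule found 43 of the 12393 genes on the array, through 68 probe sets. Of the 43 members, 30 were above the detection floor on at least 1 array and 17 on all 3. Of all 12393 genes, 8745 and 7164 were. The floor is the 40th percentile of the pooled signals, and detected means above it. By array, 25 members were detected at 0 h, 24 at 24 h and 24 at 72 h.

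Myosins are motors that pull on actin filaments with energy from ATP. Conventional myosin II has a pair of heavy chains, each with an essential and a regulatory light chain. In its smooth muscle and nonmuscle forms, phosphorylation of the regulatory chain by myosin light chain kinase switches on contraction. Unconventional myosins carry membranes, organelles or signalling proteins along actin. Osteoclasts hold on to bone with podosomes, small actin-rich contacts that gather into a sealing ring, and both kinds of motor are found in such structures.

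All 3 cultures came from C57/BL6 mice and had first spent 3 days in human M-CSF (50 ng/ml), which turns marrow cells into macrophages. They then received human RANKL, the osteoclast-inducing cytokine, at 150 ng/ml, and are labelled precursor at 0 h, differentiating precursor at 24 h and osteoclast at 72 h. No array of cells kept for 24 or 72 h without RANKL was analysed here, so RANKL and the longer culture cannot be told apart. Each time is a single array, so the spread between replicates is unknown and no test was run. The error given is technical, taken from the disagreement between probe sets of the same gene, and came to a factor of 1.33 for 24 h against 0 h (log2 SD 0.41), 1.41 for 72 h against 0 h (0.49) and 1.28 for 72 h against 24 h (0.36). It leaves out the variation between cultures.

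Over all genes the median deposited log2 signal was above that of the 0 h array by 0.73 on the 24 h array and by 0.77 on the 72 h array, so each array was centred on its median and all differences are relative to that shift. Signals below are in scaled array units. Values under 29.6 units, the floor, were set to it, a fold with 1 side at the floor is a lower bound, and a gene was called higher or lower at a difference of at least 2-fold. On the array labelled osteoclast, 9 of 9 osteoclast markers were higher at 72 h than at 0 h, and 8 of 9 macrophage markers were lower. Of all measured genes 12.5% were higher and 12.8% lower in this comparison. In bulk cultures, fewer cells of a type and less RNA per cell cannot be told apart.

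The family did not move as a block. At 24 h against 0 h, 3 of 29 measured members were higher and 4 lower, where 13.2% of all measured genes were higher and 9.22% lower. At 72 h against 0 h, 5 of 29 were higher and 5 lower, against 12.5% and 12.8% of all genes. At 72 h against 24 h, 5 of 28 were higher and 2 lower, against 6.92% and 10.0% of all genes. The member shares were 10.3% and 13.8%, then 17.2% in each direction, then 17.9% and 7.14%, and all of these but the 17.9% lay within 5 percentage points of the background. The median log2 difference of the members was -0.04, -0.08 and -0.04 in the 3 comparisons, beside 0.12, -0.01 and -0.14 over all measured genes. Without centring, 6 of 27 measured members were higher and 2 lower at 24 h against 0 h. Of 8460 genes measured in this way, 3302 were higher and 314 lower. At 72 h against 0 h, 11 of 24 members were higher and 1 lower, beside 2985 and 455 of 8540 genes. At 72 h against 24 h the counts were 6 and 2 of 29 members, beside 668 and 803 of 8818 genes. Scaling to hybridization controls gave 5 and 3 of 29 at 72 h against 0 h, beside 1175 and 1019 of 8516 genes. In all 14 members were called in at least 1 comparison and 16 detected members were called in none. Where 1 side of an uncalled difference was at the floor, as for Myl6b, Mylk2 or Myo1h, the difference may exceed 2-fold. The comparisons share arrays, so their values are not independent of each other.

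**Figure D1:**
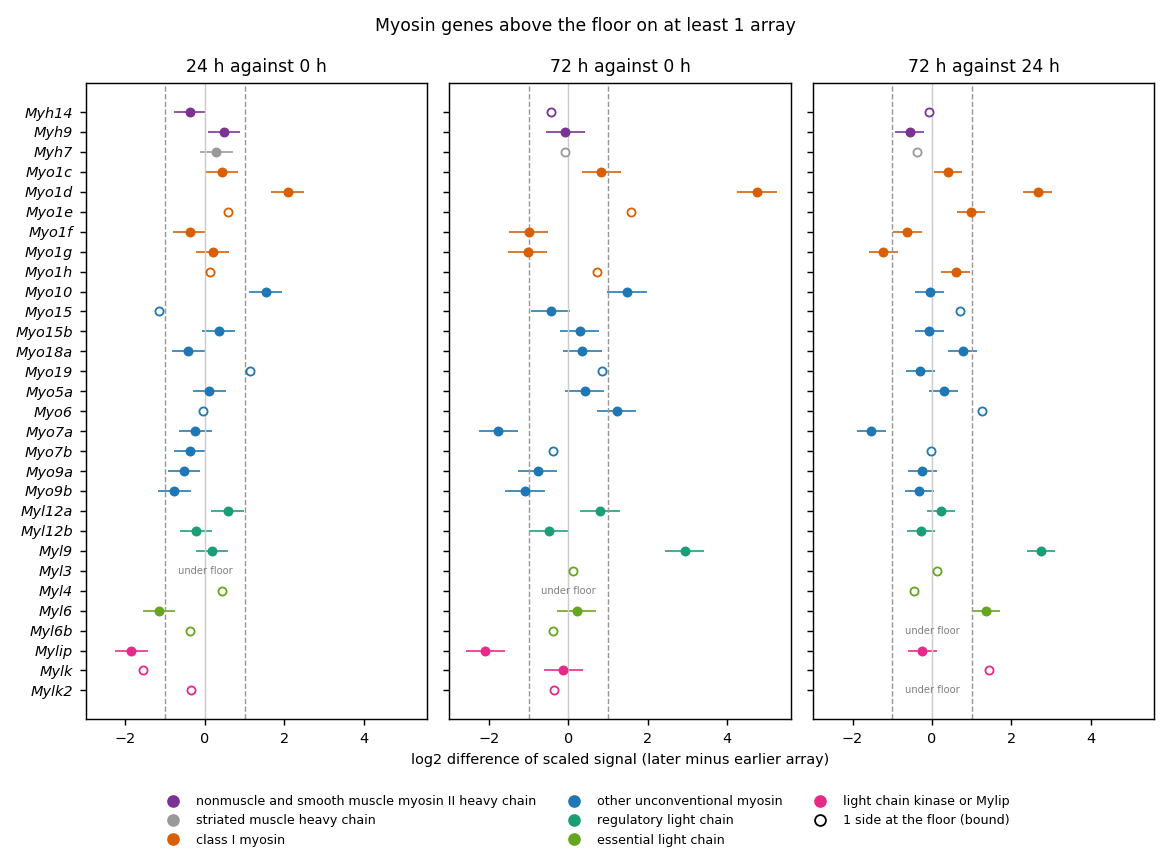
log2 difference of the scaled signal (later minus earlier array) for the 30 myosin genes above the floor on at least 1 array, coloured by role. Bars are the technical SD, open points have 1 side at the floor and carry no bar, and dashed lines mark 2-fold; Myo1d and Myl9 stand far to the right at 72 h, while most members lie between the dashed lines.

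Class I myosins are single-headed motors that link actin to membranes, and all 6 members on the array were detected. They went apart: at 72 h against 0 h Myo1d and Myo1e were higher, Myo1f and Myo1g lower, and Myo1c and Myo1h not called. Myo1d, a short-tailed class I motor whose Drosophila relative sets left-right asymmetry of organs, had signals of 102 at 0 h, 432 at 24 h and 2739 at 72 h. It was high on both RANKL arrays and still climbing between them, 4.24-fold higher at 24 h and 26.9-fold higher at 72 h than at 0 h, each beyond the technical factor. That difference ranked 12th among 8558 measured genes at 72 h, and 43.9% of it on the log2 scale was already there at 24 h. Myo1d has 1 probe set on the array, of a type that can match several transcripts, so no other probe set checks it.

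Myo1e, a long-tailed class I motor of endocytosis and cell contacts, had signals of 25.1, 44.5 and 87.8 at 0, 24 and 72 h. Its 0 h value was under the floor, which makes the 72 h difference at least 2.97-fold. Another of its probe sets gave at least 3.10-fold, from 11.6, 24.2 and 91.6, and the last was under the floor on all arrays. The call was lost when its probe sets were averaged.

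Myo1c, a motor that tethers vesicles at the plasma membrane, had signals of 699, 940 and 1242 by its brightest probe set, which kept it within 2-fold at 72 h (1.78-fold higher than at 0 h). Its other 3 probe sets were 2.46-fold, 2.65-fold and 3.94-fold higher at 72 h than at 0 h, so all 4 pointed the same way and 3 of them passed 2-fold.

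Myo1f and Myo1g are class I motors of blood cells. Myo1f had signals of 638, 489 and 318, and was 2.01-fold lower at 72 h than at 0 h. Myo1g had 455, 522 and 224, and was 2.04-fold lower at 72 h than at 0 h and 2.33-fold lower than at 24 h. Against 0 h both stood past the 2-fold line by less than the technical SD, and both of those calls were lost when arrays were scaled to hybridization controls or left uncentred. Myo1h, under the floor on the 0 h array, had 32.4 and 48.9 on the later arrays and was not called.

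**Figure D2:**
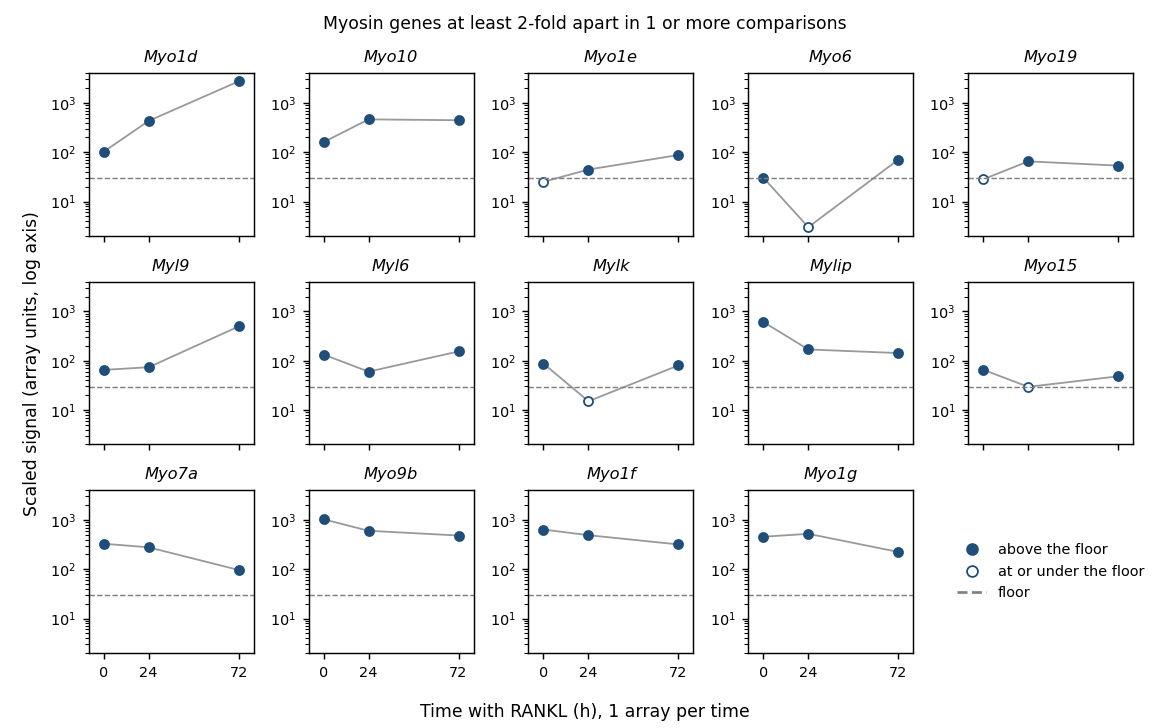
Scaled signal (log axis) at 0, 24 and 72 h of RANKL for the 14 myosin genes at least 2-fold apart in 1 or more comparisons, 1 array per point. Filled points are above the floor of 29.6 (dashed line) and open points are not; Myo1d climbs from array to array, Myl9 is high only on the 72 h array, Mylip is low on both RANKL arrays, and Myl6, Mylk, Myo15 and Myo6 are lowest at 24 h.

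Among the other unconventional myosins, 11 of 13 members were detected. At 72 h against 0 h Myo10 and Myo6 were higher, Myo7a and Myo9b lower, and 7 members were not called. Myo10, which moves to the tips of filopodia, had signals of 160, 463 and 445, so it was high on both RANKL arrays and flat between them. The differences were 2.89-fold at 24 h and 2.78-fold at 72 h against 0 h, and 104% of the 72 h log2 difference was there by 24 h. A dimmer probe set of Myo10 had 27.3, 193 and 304, at least 6.54-fold higher at 24 h and at least 10.3-fold at 72 h than at 0 h, and the last was barely above the floor at 72 h alone.

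Myo6, which unlike other known myosins walks toward the pointed end of actin filaments and works in endocytosis, had signals of 30.5, 3.02 and 70.7. It was just above the floor at 0 h, under it at 24 h and highest at 72 h, 2.32-fold above 0 h and at least 2.39-fold above 24 h. Its other 2 probe sets were also highest at 72 h, at 31.7 and 19.1, the second under the floor. Both Myo6 calls were lost when probe sets were averaged.

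Myo7a, a motor of hair cell stereocilia and of the retinal pigment epithelium, had signals of 328, 278 and 96.4. It was 3.41-fold lower at 72 h than at 0 h and 2.89-fold lower than at 24 h, with 13.6% of the 72 h log2 difference there by 24 h. Myo9b, a class IX motor, had 1029, 602 and 482. It was 2.14-fold lower at 72 h than at 0 h, with 70.7% of that there by 24 h, and stood past the 2-fold line by less than the technical SD. The Myo7a and Myo9b calls against 0 h were lost when arrays were left uncentred. The related Myo9a, at 98.2, 68.3 and 57.6, was lower in the same order of times but within 2-fold (1.70-fold below 0 h at 72 h).

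At 24 h against 0 h, Myo19, a motor of mitochondria, was at least 2.21-fold higher (28.1, 65.2 and 53.4 at 0, 24 and 72 h). Myo15, the motor of stereocilia tips, was at least 2.22-fold lower (65.6, 29.5 and 48.3). Both differences have a value within 2 units of the floor on 1 side, and the Myo15 call was lost without centring. Myo5a, the melanosome carrier, had 581, 629 and 771, Myo18a, which has little motor activity of its own, 213, 159 and 272, and neither was called. Myo15b and Myo7b lay between 14.6 and 40.3 on all arrays. Myo5b and Myo5c were under the floor on all 3.

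Myosin II heavy chains among the members gave no call in any comparison. Myh10, another nonmuscle heavy chain, has no single-symbol probe set and was not read. Myh9, the nonmuscle heavy chain of most blood cells, had signals of 1109, 1549 and 1047, a difference of 1.40-fold at 24 h and a log2 difference of -0.08 at 72 h against 0 h. Its 4 probe sets ranged from -0.14 to 0.48 at 24 h and from -0.69 to -0.08 at 72 h on the log2 scale against 0 h. The second nonmuscle member, Myh14, had 40.4, 31.0 and 13.0, near or under the floor. Myh11, the smooth muscle heavy chain, was under the floor on all arrays by both of its probe sets. Of 7 striated muscle heavy chains, Myh1, Myh2, Myh3, Myh4, Myh6 and Myh8 were under the floor throughout, and Myh7 had 31.2, 38.1 and 7.74.

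**Figure D3:**
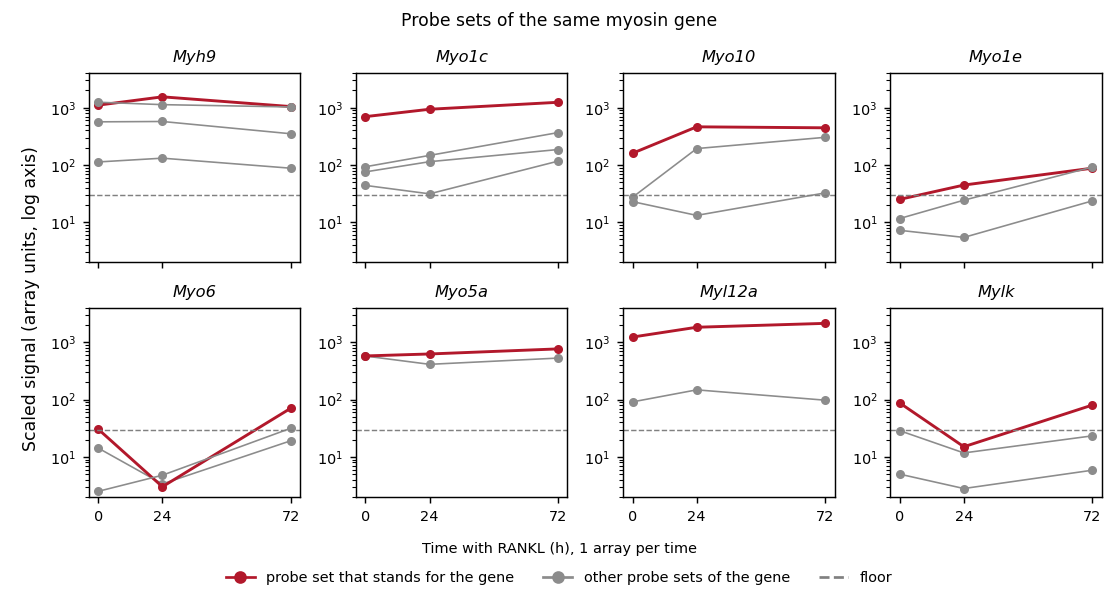
Scaled signal (log axis) at 0, 24 and 72 h for every probe set of 8 myosin genes that have several. The probe set that stands for the gene is in red and the others are in grey, with the floor dashed; the 4 probe sets of Myo1c are all highest at 72 h, while those of Myo10 and Myl12a differ in the later interval.

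Regulatory light chains split between 1 that was far higher and 2 that stayed within 2-fold. Myl9, a regulatory chain of smooth muscle and nonmuscle myosin II, had signals of 65.1, 73.8 and 495. The 0 and 24 h arrays were alike and the 72 h array stood apart, 7.61-fold above 0 h and 6.71-fold above 24 h. Only 6.18% of its 72 h log2 difference was present at 24 h, and against 24 h it ranked 38th among 8391 measured genes. Myl12a and Myl12b, the nonmuscle regulatory chains, had 1242, 1842 and 2154 and 1910, 1638 and 1350 and were not called. Their brightest probe sets leaned apart, with log2 differences of 0.79 and -0.50 at 72 h against 0 h, and the dimmer probe set of Myl12a had 0.10. Myl2, Myl7 and Myl10 were under the floor on all arrays.

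Essential light chains were called once in each direction, both times for Myl6, the essential chain of nonmuscle and smooth muscle myosin. By its single-symbol probe set it had 133, 60.03 and 154, which is 2.22-fold lower at 24 h than at 0 h and 2.57-fold higher at 72 h than at 24 h. The 24 h call was lost without centring. This dip was not shared by 2 other probe sets that the annotation gives to Myl6 together with 2 other genes. Those probe sets were far brighter, with signals of 3303 and 3149 at 0 h. Their log2 differences were 0.04 and -0.10 at 24 h against 0 h and 0.59 and 0.39 at 72 h against 24 h. Myl3, Myl4 and Myl6b were each above the floor on 1 array only, at 32.1, 40.1 and 38.5, and Myl1 on none.

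Mylk, the myosin light chain kinase, had signals of 87.6, 15.1 and 80.3. It fell under the floor at 24 h, at least 2.96-fold below 0 h, and was at least 2.72-fold higher at 72 h than at 24 h, back near its 0 h signal. Its other 2 probe sets were under the floor on all arrays, and averaging them ended both calls. Mylk2, the skeletal muscle kinase, was above the floor at 0 h alone (38.0). Mylip, a ubiquitin ligase that binds myosin regulatory light chain and also removes the LDL receptor, had 611, 169 and 143. It was 3.61-fold lower at 24 h and 4.27-fold lower at 72 h than at 0 h, with 88.4% of the 72 h log2 difference there by 24 h.

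Because the light chain Myl9 moved late, the promoters of the members were read for short motifs of factors known in muscle or osteoclast gene control. RefSeq promoters (build GRCm38.p6) were found for 38 of the 43 members, with 49 entries, and the 250 bases before each start were searched on both strands. Myo1d, Myh11, Mylk2, Myo5b and Myo7b had no entry, so their promoters were not read. The CArG box, bound by serum response factor, was in 6 of the 49 entries (12.2%), against 1.47% of all 32851 promoters. These were entries of Myh4, Myl3, Myl6, Myl7, Myl9 and Myo1e. At 72 h against 0 h Myl9 and Myo1e were called higher and Myl3 and Myl6 were not called. Myh4 and Myl7 were under the floor throughout. Myl6 has another entry, which holds no CArG box. The 3 entries of members called in any comparison are printed below 5′ to 3′ with the CArG box in capitals. They are those of Myl9 (chr2:156775214-156775463, plus strand), Myo1e (chr9:70207100-70207349, plus strand) and Myl6 (chr10:128493010-128493259, minus strand), and the box lies 161 to 152, 32 to 23 and 50 to 41 bases before the start.
Myl9: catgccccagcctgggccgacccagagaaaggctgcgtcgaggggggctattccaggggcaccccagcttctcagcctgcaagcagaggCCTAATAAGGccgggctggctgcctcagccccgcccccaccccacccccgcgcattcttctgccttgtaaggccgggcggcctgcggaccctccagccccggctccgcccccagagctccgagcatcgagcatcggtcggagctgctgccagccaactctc
Myo1e: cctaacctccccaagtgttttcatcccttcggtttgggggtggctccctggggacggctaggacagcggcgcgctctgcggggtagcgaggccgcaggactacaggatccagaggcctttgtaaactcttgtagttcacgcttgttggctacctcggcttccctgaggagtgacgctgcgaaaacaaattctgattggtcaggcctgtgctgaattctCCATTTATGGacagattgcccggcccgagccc
Myl6: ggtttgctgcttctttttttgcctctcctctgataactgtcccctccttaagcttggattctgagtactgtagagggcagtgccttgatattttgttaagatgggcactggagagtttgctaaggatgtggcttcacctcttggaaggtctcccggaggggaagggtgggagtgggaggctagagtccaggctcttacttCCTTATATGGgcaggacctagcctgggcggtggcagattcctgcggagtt
The AP-1 motif TGANTCA was in 10.2% of member entries against 6.75% of all promoters, the NFAT core TGGAAA in 20.4% against 18.6%, the PU.1 core GAGGAA in 20.4% against 23.3%, and the E-box CACGTG of the MiT family in 2.04% against 6.02%. No matches of these motifs overlapped each other in the member entries. A match describes letters in the window and is not evidence that the factor binds there.

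Proteins that share filaments with myosin II, and cargo adaptors of other myosins, were read from lists. These lists were chosen with earlier results of these data known, so their shares describe the listed genes and test nothing. A list of 14 genes spans chaperones, tropomyosins, caldesmon, calponins, calmodulins and S100a4. Of these, 10 were measured at 72 h against 0 h, the calmodulins not among them and not analysed here. In this list 6 of 10 measured members were higher at 72 h than at 0 h and 0 lower, against 12.5% and 12.8% of all genes. Their log2 differences had a median of 1.52, beside -0.01 over all genes. Tpm1, a tropomyosin that lies along actin filaments, had 198, 808 and 1443, and was 7.30-fold higher at 72 h than at 0 h. Tpm2 had 343, 259 and 1847 and was 5.38-fold higher. Cald1, caldesmon, which restrains myosin on actin, had 382, 268 and 1307 and was 3.42-fold higher. The others were Tpm4 at 2.41-fold, Cnn3 at 3.69-fold and Cnn1, a smooth muscle calponin, at least 6.86-fold, which is also in the smooth muscle marker list. Tpm3 had 3326, 3219 and 1863 and was not called. At 24 h against 0 h this list had 2 higher, Tpm1 and S100a4, and 1 lower, Cnn2, among 9. The shares of all genes were 13.2% and 9.22%, so these few genes are not read further.

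Cargo adaptors of unconventional myosins had 1 of 12 measured members higher and 3 lower at 72 h against 0 h, with a median log2 difference of 0.08. Over all genes 12.5% were higher and 12.8% lower, with a median of -0.01, so these shares rest on 1 and 3 genes and are not read further. Dab2, an endocytic adaptor that binds Myo6, had 2521, 1120 and 454 and was 5.55-fold lower at 72 h than at 0 h. Gipc1, another Myo6 adaptor, had 193, 341 and 453 and was 2.35-fold higher. Rab27b and Sytl4, of secretory vesicle transport, were at least 3.53-fold and at least 2.23-fold lower.

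Markers of other cell types also moved. Of all measured genes, 12.5% were higher and 12.8% lower at 72 h against 0 h. The shares lower were 9.22% at 24 h against 0 h and 10.0% at 72 h against 24 h. In the smooth muscle list of 7, 4 of 5 measured genes were higher at 72 h than at 0 h and 0 lower, and their signals summed to 1316, 1209 and 6278 on the 0, 24 and 72 h arrays. Tagln, transgelin, was 12.6-fold higher, Actg2, a smooth muscle actin, 9.39-fold, and Acta2 3.65-fold, while Des and Lmod1 were under the floor on all arrays, as was Myh11. In the stroma and osteoblast list, 5 of 8 measured genes were higher and 1 lower at 72 h than at 0 h, and the summed signal was 2950, 3160 and 9819. Col1a1, a chain of type I collagen, was 6.98-fold higher, and Col1a2, Col3a1, Col6a1 and Sparc were the others. Dcn, decorin, had 127, 69.7 and 45.7 and was 2.78-fold lower, and Lum, lumican, was above the floor at 0 h alone (42.9). None of the stroma markers was under the floor on all arrays. Neutrophil markers were lower at 72 h than at 0 h in 8 of 8 and than at 24 h in 8 of 8, with sums of 17910, 12655 and 1306 at 0, 24 and 72 h. Platelet markers were lower in 7 of 7 at 24 h against 0 h, in 7 of 7 at 72 h against 0 h and in 1 of 7 at 72 h against 24 h, with sums of 9372, 1864 and 899. Skeletal and heart muscle markers had sums of 283, 351 and 324 with 9 of 13 under the floor throughout. The part of these cells in the Myl9, tropomyosin and calponin values, and in the lower Myo1f, Myo1g and Myo7a values at 72 h, was not tested.

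**Figure D4:**
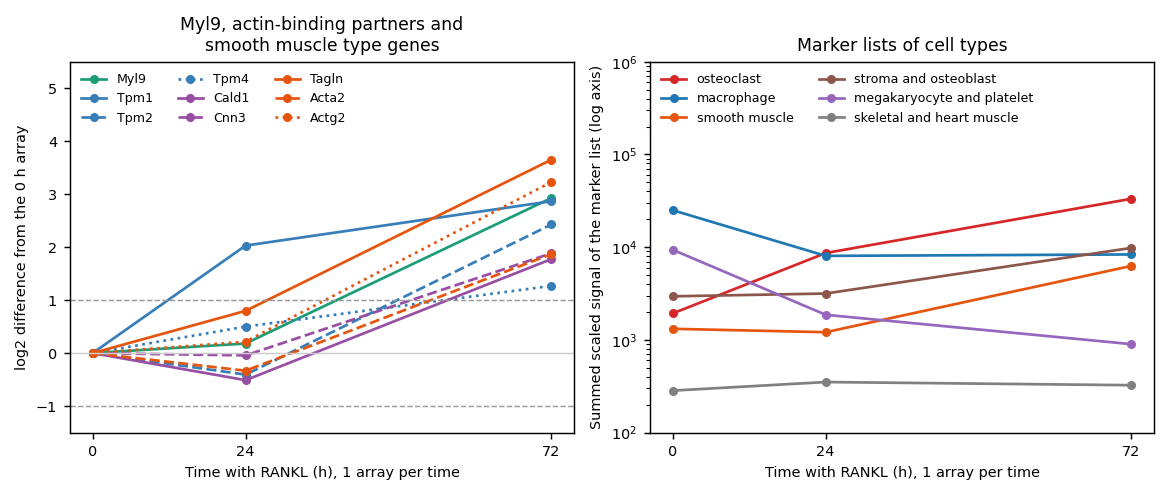
Left, log2 difference from the 0 h array for Myl9, Tpm1, Tpm2, Tpm4, Cald1 (caldesmon), Cnn3, Tagln, Acta2 and Actg2, with 2-fold dashed. All genes drawn were called higher at 72 h against 0 h. Tpm3, Cnn2 and Smtn (log2 differences -0.84, -0.38 and 0.41) were not called and are not drawn. Cnn1, which was called higher, is not drawn either. Right, summed scaled signal (log axis) of 6 marker lists; the smooth muscle and stroma sums are high at 72 h (6278 and 9819), as is Myl9.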

How the data were processed

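The authors deposited 1 intensity signal per probe set and array on a linear scale, made with MAS5 per the submitters' processing notes (version and scaling target not given in the sources used here). Of 22690 probe sets, 64 controls were left out of scaling. In the 2016 platform annotation 20380 probe sets had 1 symbol, 691 several and 1555 none. All 43 members matched a RefSeq gene by identifier.

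Each array's log2 signals were centred on the median of the gene probe sets and put on the mean scale of the 3 arrays. The floor (29.6 units) was the 40th percentile of these values, pooled over the arrays. A gene was its probe set with the highest mean log2 signal, and counted as measured with at least 1 of the 2 arrays above the floor. The technical SD is that of the difference between the 2 brightest probe sets of a gene, over 2702 to 2785 genes, divided by the square root of 2. The number of arrays limits the precision. Every member above the floor was named. The code was tested on simulated data. Python 3.11.15, numpy 2.4.6 and pandas 2.3.3 were used. The members and lists were chosen with earlier results of these data known. A list of regulators of myosin II is not reported here.

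Alternatives were the deposited scale, quantile normalization, a 2% trimmed mean, floors at the 20th and 60th percentile, no floor, averaged probe sets, probe sets of 1 transcript, and scaling to 18 hybridization controls, the last chosen after seeing the data.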

Additional observations from a re-analysis of the deposited data

How the results depend on the processing

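No sign of a called member was reversed under the 9 alternatives, and 36 of 54 recomputed counts of called members stayed within 1.5 times the reported one. Of 24 calls, 7 held under all 9: Myl9 and Mylip in both of their comparisons, Myo10 in both of its, and Myo1g at 72 h against 24 h. On the deposited scale 6 of 27 members were higher and 2 lower at 24 h against 0 h. Of all genes 3302 of 8460 were higher and 314 lower. At 72 h against 0 h, 11 of 24 members were higher and 1 lower, beside 2985 and 455 of 8540 genes. Calls of Myl6, Myo15, Myo1f, Myo1g, Myo7a and Myo9b against 0 h were lost on this scale. When the floor was put at the 20th percentile 8 of 37 members were higher and 11 lower at 72 h against 0 h. Of 11024 genes 1487 were higher and 1659 lower. At 72 h against 24 h 7 of 35 members were lower, beside 1267 of 10869 genes. With the floor at the 60th percentile 1 of 15 members was lower at 24 h against 0 h, beside 523 of 6260 genes. At 72 h against 0 h 3 of 16 members were higher, beside 746 of 6281 genes. At 72 h against 24 h 2 of 15 members were higher, beside 364 of 6145 genes. Calls of Myl6, Mylk, Myo15, Myo19, Myo1e and Myo6 were lost at this floor. With no floor, 8 of 43 members were higher and 10 lower at 24 h against 0 h. The counts were 9 and 13 at 72 h against 0 h, and 11 and 10 at 72 h against 24 h. Of 12393 genes, 2017 were higher and 1887 lower at 24 h against 0 h. Their counts were 1983 and 2283 at 72 h against 0 h, and 1486 and 1896 at 72 h against 24 h. Without probe sets that can match several transcripts 1 of 26 members was lower at 72 h against 24 h, since the Myo7a probe set drops out. Of 6753 genes measured in this way 666 were lower. The Myo1d probe set drops out too, and Myo1c, read from another probe set, was then higher at 72 h (log2 difference 1.98 against 0 h and 1.32 against 24 h). Scaling to hybridization controls left 3 of 29 members lower at 72 h against 0 h, beside 1019 of 8516 genes. Quantile normalization and trimmed mean scaling moved none of the 6 counts by over 1.5 times. Of 711 differences of detected members recomputed, 619 moved by less than the technical SD. No paired analysis was possible because each time has 1 array. Signal near the floor limits Myo6, Myo15, Myo19, Myo1e and Mylk.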

Other observations

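Outside the membership rule, 4 probe sets carried a myosin symbol beside other symbols and name no gene. The 2 given to Myl6 with Gm8894 and Gm5526 had signals of 3303, 3395 and 5122 and of 3149, 2938 and 3845 at 0, 24 and 72 h. At 72 h against 0 h they were 1.55-fold and 1.22-fold higher, within 2-fold. The 2 given to Myh7 with Myh6 were under the floor on all arrays.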
